A study of Mus musculus with 6 samples.

Results

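The nuclear-encoded subunits of the respiratory chain and of ATP synthase were followed in RAW264.7, a mouse macrophage-like cell line of wild-type (WT) genotype. Members were the genes of the deposited table named as subunits of complexes I to V or as cytochrome c. Their names begin with Ndufa, Ndufb, Ndufc, Ndufs or Ndufv and a number, Uqcr, Cox4 to Cox8 or Atp5, or are Sdha to Sdhd, Cyc1 or Cycs. Assembly factors and names marked -ps as pseudogenes were left out. The rule found 93 entries with 92 symbols (Atp5o had 2 entries, of which 1 was at 0 TPM in every library) among 56636 genes. By complex these were 40 of complex I, 4 of complex II, 9 of complex III, 21 of complex IV, 18 of complex V and Cycs. Ndufa4 and Ndufa4l2 were placed in complex IV, where the Ndufa4 protein is known to reside. The rule missed Ndufab1, the acyl carrier subunit of complex I, and Atpif1, the inhibitor of ATP synthase, which are given beside their complexes.

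Cells were kept for 24 h either with vehicle or with the agent that the labels call 25-HC, and each of these groups has 3 libraries of total RNA, numbered 1 to 3. Its full name and its dose are not in the labels, which place the work in a study of cholesterol homeostasis and miR-9-5p from cancer cells. The comparison asks how transcript levels differ between treated and vehicle cells. RAW264.7 is 1 line, the labels do not say whether the libraries are separate cultures, and p-values therefore measure a spread that may be technical. Values are TPM, relative transcript numbers that divide by transcript length and by the library total, so levels of different genes can be compared but depth is unknown. In bulk RNA, fewer cells with a transcript and less of it per cell cannot be told apart.

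The vehicle libraries stood apart from each other. Between 11971 and 12005 genes reached 1 TPM in the 25-HC libraries and 11238, 9492 and 11994 in vehicle 1, 2 and 3. For the 83 members tested (those averaging 1 TPM or more in all libraries), the median coefficient of variation was 2.46% among the 25-HC libraries and 25.8% among the vehicle libraries. Vehicle 2 was the lowest or the highest of all 6 libraries for 69 of the 83 members. The summed level of 10 macrophage markers was 2442, 1735 and 2595 TPM in vehicle 1, 2 and 3 and 2537 to 2558 TPM with 25-HC. Cd68 and Lyz2 were abundant and Mertk was listed at 0. Of the 9 markers tested, 5 lay above every vehicle library in every 25-HC library, namely Adgre1, Fcgr1, Ptprc, Itgam and Lyz2. Cd68 was the 1 that lay below. All tested genes gave 22.6% above and 8.1% below. Summed markers of muscle stayed at or below 3.23 TPM, of brown fat at or below 2.29, of neutrophils at or below 2.57, of lymphocytes at or below 0.73, of fibroblasts at or below 0.47 and of epithelium at or below 0.23, and those of sperm precursors were at 0. Markers of osteoclasts, which the line is known to form, summed to 42.6 to 101.3 TPM.

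Complexes I and II of the inner mitochondrial membrane pass electrons from NADH and from succinate to ubiquinone, complex III passes them on to cytochrome c, and complex IV, cytochrome c oxidase, hands them to oxygen. The proton gradient built on the way drives complex V, the ATP synthase. All complexes except II are made of subunits from both genomes: a few core membrane proteins are encoded in mitochondrial DNA and the rest in the nucleus. In macrophages the chain is known both for ATP supply and as a source of signals during activation. The promoters of nuclear subunit genes are known for sites of the factors NRF1, GABPA and YY1, which tie these dispersed genes together.

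Promoters are shown of 4 members that recur below and that hold a match to a motif searched. They are the electron carrier Cycs and the flavoprotein Sdha of complex II. The others are the accessory subunit Ndufa5 of complex I and the hinge protein Uqcrh of complex III. Each promoter runs 5′ to 3′ on the gene's own strand from 250 bases before to 50 bases after the annotated start. They come from RefSeq on GRCm38.p6, whereas the deposited table was made on GRCm39, and capitals mark matches to the motifs searched.
Cycs, minus strand, chr6:50566520-50566819: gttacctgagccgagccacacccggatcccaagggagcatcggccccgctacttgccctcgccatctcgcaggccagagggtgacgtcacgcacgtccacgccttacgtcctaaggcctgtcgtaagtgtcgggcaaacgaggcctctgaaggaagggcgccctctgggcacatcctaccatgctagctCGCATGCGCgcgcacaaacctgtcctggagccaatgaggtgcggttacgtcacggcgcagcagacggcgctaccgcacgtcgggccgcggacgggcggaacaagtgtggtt
Sdha, minus strand, chr13:74350191-74350490: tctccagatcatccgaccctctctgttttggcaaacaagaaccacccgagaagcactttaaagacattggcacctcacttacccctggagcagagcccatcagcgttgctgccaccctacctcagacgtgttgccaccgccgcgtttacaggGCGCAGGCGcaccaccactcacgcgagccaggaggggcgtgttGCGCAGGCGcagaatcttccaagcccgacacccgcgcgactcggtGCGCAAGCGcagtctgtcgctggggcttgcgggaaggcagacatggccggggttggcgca
Ndufa5, minus strand, chr6:24527641-24527940: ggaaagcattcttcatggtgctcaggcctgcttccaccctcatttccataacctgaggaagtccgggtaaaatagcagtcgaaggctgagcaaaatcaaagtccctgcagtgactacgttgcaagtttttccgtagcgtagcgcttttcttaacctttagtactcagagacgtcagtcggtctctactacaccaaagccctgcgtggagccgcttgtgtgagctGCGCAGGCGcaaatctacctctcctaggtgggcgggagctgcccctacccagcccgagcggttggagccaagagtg
Uqcrh, minus strand, chr4:116075021-116075320: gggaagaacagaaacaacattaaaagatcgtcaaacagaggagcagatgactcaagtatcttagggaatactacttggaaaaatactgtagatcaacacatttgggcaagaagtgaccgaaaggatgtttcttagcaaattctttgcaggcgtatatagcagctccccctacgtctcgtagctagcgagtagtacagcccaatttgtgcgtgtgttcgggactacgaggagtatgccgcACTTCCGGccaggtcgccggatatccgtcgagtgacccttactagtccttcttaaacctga
Cycs and Ndufa5 each hold 1 match to the NRF1 motif in the window shown (1 of 2 annotated starts for Ndufa5). Sdha holds 3, and Uqcrh holds 1 match to the ETS motif of GABPA. The windows of Atp5b and Atp5e, which recur below too, hold no match and are not printed.

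The motifs searched on both strands were GCGCANGCG for NRF1, CCGGAAGT for GABPA and ATGGCGGC for YY1. Windows were matched by symbol for 67 of the 83 tested members and for 8316 of the genes tested. The NRF1 motif was in 21 of the 67 members (31.3%), in 16.6% of all genes tested and in 7.03% of all 27025 genes of the promoter table. By complex it was in 8 of 32 members of complex I, 2 of 3 of complex II, 2 of 5 of complex III, 7 of 15 of complex V and 1 of 11 of complex IV. The YY1 motif was in 6 members (8.96%), all of complex I, against 6.37% of the genes tested. The GABPA motif was in 5 members (7.46%) against 10.4%. At least 1 of these motifs was in 29 of the 67 members (43.3%) and in 29.6% of the genes tested. Members had 1.07 annotated starts each and all tested genes 1.28, and a further start adds a further window to search. A match describes letters in a window and was not tested as a binding site.

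In total, members took 3.77%, 3.78% and 3.76% of the TPM in the 3 libraries with 25-HC and 4.39%, 4.82% and 3.86% in vehicle 1, 2 and 3. Treated libraries therefore lay below every vehicle library in the sum, with vehicle 3 the nearest to them. Complex I summed to 10201, 11376 and 8466 TPM in vehicle 1, 2 and 3 and to 8539, 8516 and 8459 TPM with 25-HC. Complex III summed to 6202, 7688 and 4895 TPM with vehicle and to 4557, 4620 and 4512 TPM with 25-HC. Complex V summed to 13557, 17142 and 13173 TPM with vehicle and to 12513, 12408 and 12461 TPM with 25-HC. The sums of complexes III and V did not overlap between the groups, whereas that of complex I did, through vehicle 3. Complex IV overlapped too, at 12946, 11590 and 10957 TPM against 11034, 11252 and 11116 TPM. The sum over complex II was 908, 371 and 1016 TPM with vehicle and 991, 974 and 973 TPM with 25-HC, with vehicle 2 far below all other libraries. On the TPM scale the median member in the 25-HC libraries stood at 638 to 656 in complex IV, 545 to 574 in complex V, 279 to 314 in complex III, 221 to 224 in complex I and 177 to 187 in complex II.

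**Figure D1:**
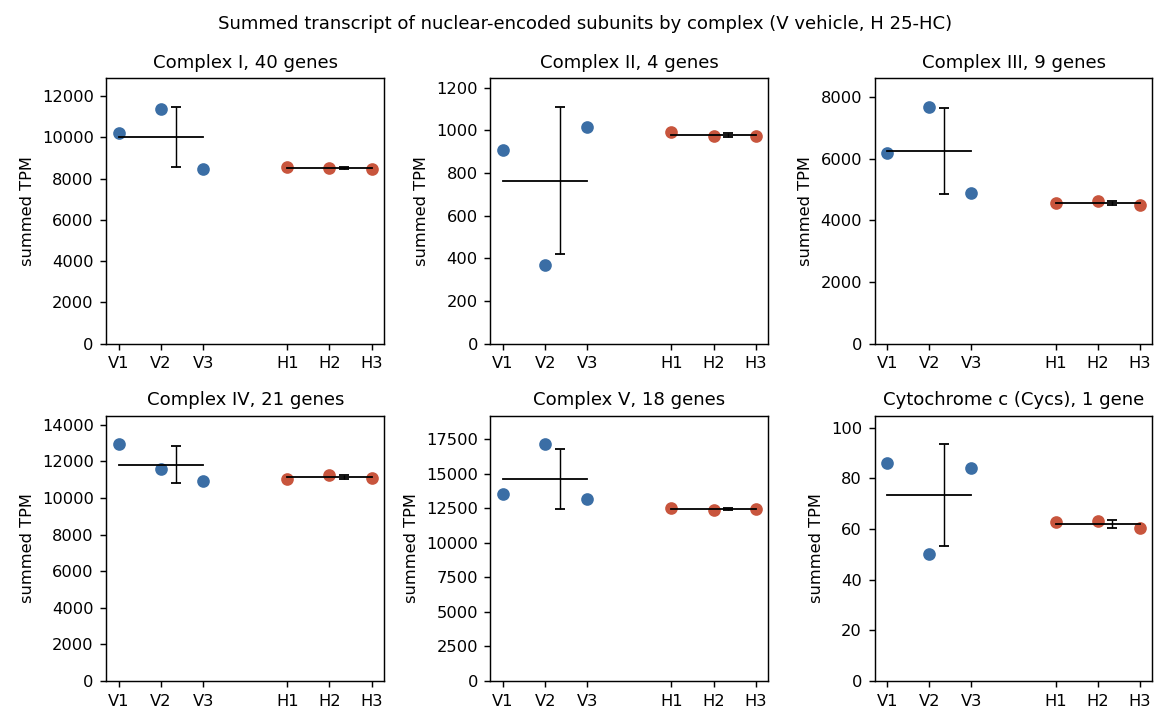
Summed TPM of the members of each complex in the 3 vehicle libraries (V1 to V3) and the 3 libraries with 25-HC (H1 to H3); points are libraries, horizontal lines group means and bars 1 SD (n = 3). The 25-HC points lie together in every panel, below every vehicle point for complexes III and V, while vehicle 2 is the highest library for complexes I, III and V and the lowest for complex II (371 TPM) and Cycs (50.1 TPM).

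No member passed limma's test on log2(TPM + 1) over the 12092 genes tested, with adjusted p from 0.389 to 0.984. That test called 1 gene higher with 25-HC (0.00827% of those tested) and none lower (0%). At an unadjusted p under 0.05, limma had 1 member higher, Cox6a2, and 3 lower, Uqcrh, Ndufa5 and Atp5mpl, beside 8.24% of all genes higher and 2.94% lower. Every 25-HC library was below every vehicle library for 26 members (31.3%) and above for 6 (7.23%), where all tested genes gave 8.1% below and 22.6% above. The median log2 difference, 25-HC minus vehicle on log2(TPM + 1), was -0.19 over the members and 0.52 over all genes tested. By complex it was -0.24 in I, 0.61 in II, -0.37 in III, -0.06 in IV and -0.26 in V.

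The balance over all genes moved with the scaling of the libraries, so each count is also given on another scale. Median-ratio rescaling, which divides each library by 1 factor, put the median over all genes at 0.01 and that of the members at -0.82. There 20 members (24.1%) lay below in every 25-HC library and 2 (2.41%) above, with 18.1% and 18.4% of all genes. Of the 26 and 6 members counted on the deposited values, 15 and 1 were among these. After subtracting each library's trend with transcript length, 19 members (22.9%) lay below and 7 (8.43%) above, with 19.1% and 17.2% of all genes, and 16 of the 26 and all 6 were among these. With that correction the median was -0.26 over the members and 0.00 over all genes. On the deposited values the gap between the groups was small for most of the 26, with a median of 1.06-fold between the highest 25-HC and the lowest vehicle library and a range from 1.00-fold to 1.28-fold. The gap exceeded 1.1-fold for 9 of them and, among the 6 higher members, for Cox6a2 and Cox7a2l.

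The nearest vehicle library gave little difference. Against vehicle 3 alone, for which there is no test, the median log2 difference was -0.04 over the members and -0.07 over all genes. The mean with 25-HC was within 10% of vehicle 3 for 58 of 83 members, more than 10% below it for 15 and more than 10% above it for 10. Furthest below were Cycs at 0.739 times vehicle 3, Cox7a1 at 0.763, Ndufa5 at 0.766, the ATP synthase membrane subunit Atp5md at 0.807 and Uqcrh at 0.821. Furthest above were Cox6a2 at 4.09 times, the iron-sulfur subunit Ndufs8 at 1.28 and Cox7a2l at 1.23. Without vehicle 2, 39 members (47.0%) lay below and 7 (8.43%) above, where all genes gave 16.9% and 23.6%. In that fit 13 members (15.7%) and 18.2% of all genes had an unadjusted p under 0.05 by limma, and the smallest adjusted p of a member was 0.0703.

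**Figure D2:**
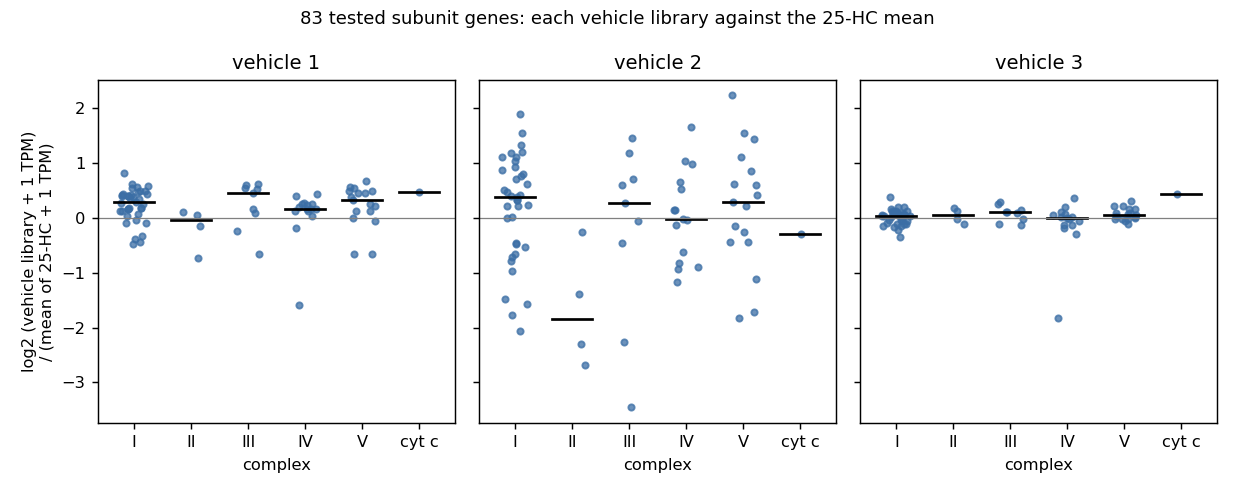
Each point is 1 of the 83 tested members, placed by complex (x axis) and by log2 of its level in 1 vehicle library over the mean of the 25-HC libraries, both TPM + 1 (y axis); lines are medians per complex. Points of vehicle 3 lie close to 0 except for Cox6a2 at the bottom, those of vehicle 1 mostly above 0, and those of vehicle 2 range from Uqcrc2 (0.0844 times the 25-HC mean in TPM) to Atp5e (4.70 times).

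In vehicle 1 and vehicle 2, though not in vehicle 3, the deviation of members from the 25-HC mean tended to fall with transcript length. Members have short transcripts, from 321.5 to 3123 bases with a median of 732, where the median of all tested genes with a known length was 2345. Across the 83 members, log length and the log2 ratio of a vehicle library to the 25-HC mean had a Pearson r of -0.41 in vehicle 1, -0.43 in vehicle 2 and 0.05 in vehicle 3. The points of such a correlation share their library and are genes, not replicates. The 28 shortest members (321.5 to 595 bases) had a median log2 ratio of 0.40 in vehicle 1, 0.43 in vehicle 2 and 0.06 in vehicle 3. For the 27 of middle length (599 to 971 bases) it was 0.29, 0.42 and 0.02. All tested genes of those middle lengths had 0.16, -0.16 and 0.04. For the 28 longest members (980 to 3123 bases) it was 0.03, -0.38 and 0.05. All tested genes of the latter lengths had medians of -0.25, -1.24 and 0.08, and those as short as the 28 shortest members had 0.26, 0.33 and 0.04. How far length accounts for the differences between groups was not tested beyond the correction above.

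**Figure D3:**
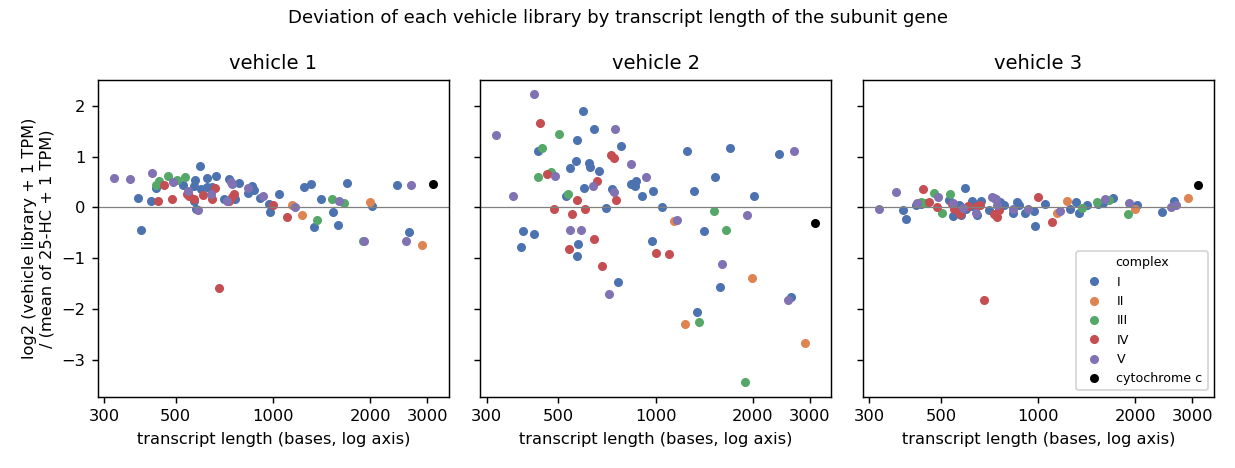
Transcript length of each of the 83 tested members (x axis, log scale, bases) against log2 of its level in vehicle 1, 2 or 3 over the 25-HC mean, both TPM + 1 (y axis), coloured by complex. The points tend downward with length in vehicle 1 (r = -0.41) and, with wide scatter at every length, in vehicle 2 (r = -0.43), and not in vehicle 3 (r = 0.05).

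Complex I, NADH dehydrogenase, had 37 of its 40 members above the threshold for testing. Of the 37, 13 lay lower and 3 higher in every 25-HC library, where all tested genes gave 8.1% lower and 22.6% higher. Ndufa11b, Ndufb11b and Ndufs6b stayed at or below 0.13 TPM. The 7 nuclear-encoded core subunits, which carry the flavin and the iron-sulfur clusters, had a median log2 difference of -0.11. The 30 accessory subunits, which surround and stabilise the core, had -0.28. Median transcript lengths of core and accessory subunits were 1312 and 656 bases. After the length correction their median differences were -0.30 and -0.34. Ndufs7 and Ndufv2, core subunits that carry iron-sulfur clusters, were the core members that lay lower in every treated library.

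Ndufv2 had 129.6, 117.7 and 100.6 TPM in vehicle 1, 2 and 3 and 97.0, 92.3 and 92.3 TPM with 25-HC. Ndufs7, near the ubiquinone site, had 264, 297 and 215 TPM with vehicle and 205, 212 and 206 TPM with 25-HC. Both separated by a few percent only, and Ndufs7 overlapped after either correction. Ndufs1, the largest core subunit, had 32.8, 12.8 and 50.1 TPM with vehicle and 46.2, 43.6 and 48.4 TPM with 25-HC. For Ndufs1 vehicle 2 was lowest, vehicle 3 highest, and the groups overlapped. Ndufv1, which binds NADH, had 129.6, 212 and 145.2 TPM with vehicle and 134.6 to 143.0 TPM with 25-HC. Ndufs3 had 134.6, 112.7 and 116.4 TPM with vehicle and 106.3 to 115.1 TPM with 25-HC, and Ndufs8 had 389, 519 and 324 TPM against 408 to 420 TPM. These 3 core subunits overlapped between the groups.

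Among accessory subunits, Ndufa5 had the most negative difference of complex I, with 166.6, 352.8 and 122.9 TPM in vehicle 1, 2 and 3 and 91.2, 95.2 and 96.0 TPM with 25-HC. All treated libraries were below all vehicle libraries, also after rescaling and after the length correction. The mean was 214 ± 122 TPM with vehicle and 94.2 ± 2.59 TPM with 25-HC (SD, n = 3), a log2 difference of -1.03 with an SE of 0.40 and an adjusted p of 0.389 by limma. Ndufa9, which lies at the junction of the arms of the complex, was highest in the other direction with 108.0, 33.1 and 131.0 TPM against 140.6, 139.9 and 142.5 TPM. Treated libraries were above all vehicle libraries by 1.07-fold at the nearest, and the groups overlapped after rescaling (log2 difference 0.85, SE 0.52, adjusted p = 0.394 by limma). Ndufa2 had the highest mean of the complex over the 6 libraries, with vehicle 2 far above the rest, at 656, 1126 and 460 TPM against 455, 458 and 440 TPM. Of the 13 lower members, 8 also lay below every vehicle library after rescaling and after the length correction. They were Ndufa5, Ndufa7, Ndufa8, Ndufb1, Ndufb7, Ndufb10, Ndufs4 and Ndufv2. These 8 were all the lower members among the 37 tested on either scale, beside 18.1% of all genes after rescaling and 19.1% after the length correction. Ndufa7 had 567, 487 and 465 TPM with vehicle and 415, 417 and 422 TPM with 25-HC, and Ndufb10 had 260, 228 and 202 TPM against 180, 170 and 179 TPM. Ndufab1, outside the rule, had 290, 238 and 356 TPM with vehicle and 363, 336 and 353 TPM with 25-HC and overlapped.

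Complex II, succinate dehydrogenase, is also an enzyme of the TCA cycle and has no subunit from the mitochondrial genome. All 4 members had positive differences (0.11 to 1.07 on the log2 scale), all overlapped between groups, and in all 4 vehicle 2 was the lowest library. Sdha had 55.8, 13.8 and 106.6 TPM in vehicle 1, 2 and 3 and 96.3, 90.3 and 94.4 TPM with 25-HC. Vehicle 3 thus exceeded every treated library while vehicle 2 had 0.148 times their mean. Sdhb, the iron-sulfur subunit, varied least, with 260, 209 and 234 TPM against 246, 256 and 252 TPM. Sdhc had 119.1, 41.6 and 108.4 TPM against 102.8 to 117.7 TPM, and Sdhd, the other membrane anchor, had 473, 106.1 and 568 TPM against 510 to 537 TPM. The ratio of Sdhb to Sdha was 4.67, 15.1 and 2.19 in the vehicle libraries and 2.55 to 2.84 with 25-HC. Transcripts of these partners in 1 enzyme were thus in unlike proportion in vehicle 2. Relative to the 25-HC mean, vehicle 2 had 0.148 times for Sdha, 0.203 for Sdhd, 0.376 for Sdhc and 0.833 for Sdhb. The median transcript lengths were 2900 bases for Sdha, 1231 for Sdhd, 1993 for Sdhc and 1142 for Sdhb. Whether length plays a part in these proportions was not tested. The median of the complex was 0.61 on the deposited values, -0.02 after rescaling and 0.16 after the length correction.

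Complex III, the cytochrome bc1 complex, had all 9 members tested, and 4 lay lower and 1 higher in every 25-HC library. All tested genes gave 8.1% lower and 22.6% higher. The 4 lower members were small subunits. The 5 small subunits had a median log2 difference of -0.53 (-0.44 after the length correction) and transcripts of 434 to 535 bases. Uqcrh, the hinge protein that binds at cytochrome c1, had 1146, 1214 and 910 TPM in vehicle 1, 2 and 3 and 745, 750 and 746 TPM with 25-HC. It was lower in every treated library on each scale, by 1.21-fold at the nearest, with a mean of 1090.2 ± 159.6 TPM against 747 ± 2.76 TPM (SD, n = 3) and a log2 difference of -0.53 (SE 0.17, unadjusted p = 0.0181 and adjusted p = 0.389 by limma). Uqcr10, Uqcr11 and Uqcrb, accessory subunits without redox groups, were the others. Uqcr10 had the highest mean of the complex, though not the highest level in vehicle 2, with 1647, 1830 and 1303 TPM against 1201, 1239 and 1193 TPM. Uqcr11 had 1178, 1843 and 869 TPM against 816, 818 and 818 TPM, and Uqcrb 444, 356 and 352 TPM against 291, 314 and 279 TPM. Uqcrq had the most negative difference (-0.62) and overlapped, with 1071, 2027 and 682 TPM against 743, 743 and 731 TPM.

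The core proteins and the subunits that carry electrons have longer transcripts than the small subunits. Uqcrc2, a core protein, had 81.4, 10.9 and 116.7 TPM in vehicle 1, 2 and 3 and 126.5, 128.2 and 131.2 TPM with 25-HC. Its treated libraries were above all vehicle libraries on each scale, by 1.08-fold at the nearest (log2 difference 1.41, SE 0.84, adjusted p = 0.394 by limma). Its partner Uqcrc1 had 244, 168.4 and 255 TPM against 230, 231 and 234 TPM and overlapped. The ratio of Uqcrc1 to Uqcrc2 was 3.005, 15.5 and 2.18 in the vehicle libraries and 1.79 to 1.81 with 25-HC, without overlap. Uqcrfs1, the Rieske iron-sulfur protein, had 153.5, 37.1 and 180.3 TPM against 192.0, 188.5 and 167.2 TPM. Cyc1, cytochrome c1, had 236, 202 and 227 TPM against 214, 208 and 212 TPM, and both overlapped. The ratio of Uqcrh to Cyc1, its neighbour in the complex, was 4.86, 6.02 and 4.01 with vehicle and 3.48, 3.602 and 3.51 with 25-HC. Such ratios do not depend on the library total, but a trend with transcript length can alter them. Lengths were 474.5 bases for Uqcrh and 1520 for Cyc1. After the length correction the log2 differences were -0.44 for Uqcrh and -0.45 for Cyc1.

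Cycs, the soluble carrier between complexes III and IV and a trigger of apoptosis once released, had 86.0, 50.1 and 84.0 TPM in vehicle 1, 2 and 3 and 62.9, 63.0 and 60.3 TPM with 25-HC. Treated libraries lay below vehicle 1 and 3 and above vehicle 2, so the groups overlapped. The means were 73.4 ± 20.1 and 62.1 ± 1.53 TPM (SD, n = 3; log2 difference -0.20, SE 0.28, adjusted p = 0.619 by limma). After rescaling and after the length correction every treated library was below every vehicle library. Cycs was also the member furthest below vehicle 3. Its transcript is the longest among the members, at 3123 bases.

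Complex IV had 15 of 21 members tested, with 3 lower and 2 higher in every 25-HC library, and the smallest median difference. All tested genes gave 8.1% lower and 22.6% higher. Cox4i1, the subunit that binds ATP, was its most abundant transcript at 2075, 1906 and 1665 TPM in vehicle 1, 2 and 3 and 1747, 1704 and 1744 TPM with 25-HC. Cox6a1, Cox6b1 and Cox8a were near it, at 1415 to 1472, 1297 to 1355 and 1583 to 1620 TPM with 25-HC, and each overlapped the vehicle libraries. Several subunits exist as tissue isoforms, and several of them were at or near 0. Cox6b2, Cox6c2, Cox7b2, Cox8b and Cox8c were listed at 0 in every library, and Ndufa4l2, known as a hypoxia-induced relative of Ndufa4, reached at most 0.69 TPM. Cox4i2, the lung isoform, had 6.22, 12.7 and 5.10 TPM against 5.59, 6.05 and 5.36 TPM, and its share of the Cox4i pair, 0.299% to 0.662% with vehicle, overlapped at 0.306% to 0.354% with 25-HC.

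Cox6a2, the isoform of heart and skeletal muscle, had 5.46, 7.64 and 4.48 TPM in vehicle 1, 2 and 3 and 18.2, 21.5 and 15.3 TPM with 25-HC. The lowest treated library was 2 times the highest vehicle library. The means were 5.86 ± 1.62 and 18.3 ± 3.12 TPM (SD, n = 3), and the log2 difference was 1.51 with an SE of 0.31, an unadjusted p of 0.00231 and an adjusted p of 0.389 by limma. Its separation held after the length correction and not after rescaling, where vehicle 2 is divided by 0.423. After quantile normalization, which gives every library the same spread of values, the groups overlapped too (log2 difference 0.89). As a share of Cox6a1 and Cox6a2 together, which no library factor can alter, Cox6a2 was 0.337%, 0.476% and 0.336% with vehicle. With 25-HC it was 1.22%, 1.46% and 1.07%. Cox6a2 thus stayed a minor form beside Cox6a1 in all libraries. The summed level of 10 muscle markers was 1.69 to 3.23 TPM with vehicle and 0.44 to 1.71 TPM with 25-HC, and Myh1, Myh2, Myh4 and Myh6 were at 0. In the RefSeq gene order Cox6a2 lies beside Itgad, at or below 0.01 TPM here, near Itgam, an integrin of macrophages, with 12.5, 0.53 and 51.0 TPM against 69.4, 62.4 and 71.4 TPM, and near Armc5, with 5.70 to 7.77 TPM against 7.53 to 8.59 TPM. Whether reads of neighbours reach Cox6a2 was not tested.

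Cox7a2l, which joins complexes III and IV into supercomplexes, had 348, 208 and 323 TPM in vehicle 1, 2 and 3 and 395, 405 and 391 TPM with 25-HC. Treated libraries were above by 1.125-fold at the nearest (log2 difference 0.47, SE 0.24, adjusted p = 0.389 by limma), also after the length correction, and overlapped after rescaling. The related Cox7a2 lay below in every treated library, with 839, 920 and 661 TPM against 638, 628 and 656 TPM, and overlapped on both other scales. Cox7a1, the muscle form, had 12.0, 36.5 and 14.25 TPM against 9.70, 11.6 and 11.4 TPM, and it lay below all vehicle libraries on the deposited and the rescaled values. Its share of the pair with Cox7a2 overlapped, at 1.41% to 3.82% with vehicle and 1.498% to 1.81% with 25-HC. Ndufa4 had 1042, 1214 and 828 TPM against 755, 790 and 770 TPM and was the third of the members lower in every treated library. Cox7b overlapped, at 439, 230 and 491 TPM against 381, 488 and 413 TPM.

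**Figure D4:**
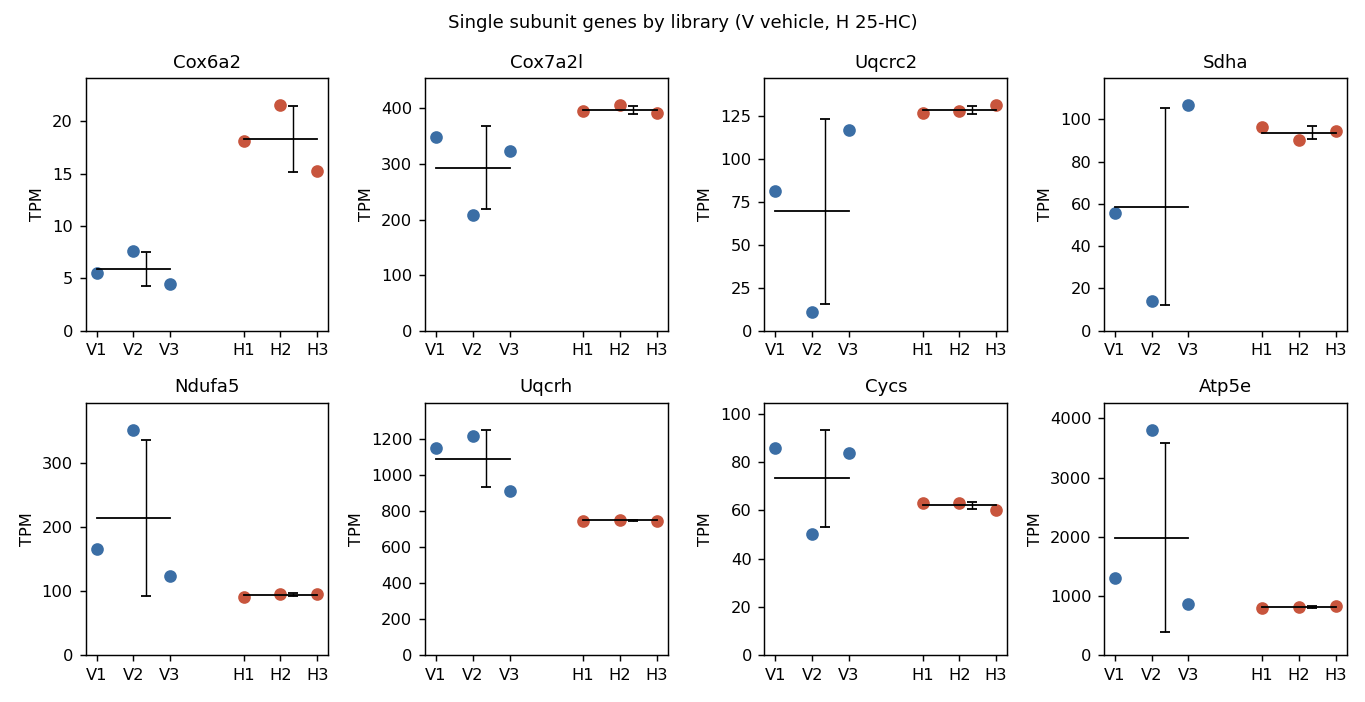
TPM of 8 members by library, vehicle (V1 to V3) and 25-HC (H1 to H3); points are libraries, lines group means and bars 1 SD (n = 3). Cox6a2, Cox7a2l and Uqcrc2 are above every vehicle library with 25-HC, Ndufa5, Uqcrh and Atp5e below every one, and Sdha and Cycs overlap.

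Complex V had 17 of 18 members tested, 6 lower in every 25-HC library and none higher. All tested genes gave 8.1% lower and 22.6% higher. After rescaling 5 members of the complex lay lower and 1 higher, beside 18.1% and 18.4% of all genes. After the length correction 3 lay lower and 1 higher, beside 19.1% and 17.2% of all genes. The 5 subunits of the F1 head had a median log2 difference of 0.11, the 4 of the peripheral stalk -0.25 and the 5 accessory membrane subunits -0.44. These medians were -0.26, -0.26 and -0.35 after the length correction and -0.52, -0.88 and -1.07 after rescaling, so the sign of the F1 median depends on the scale. Atp5b, the catalytic beta subunit, had the highest mean of all members, with 2051, 2908 and 3440 TPM in vehicle 1, 2 and 3 and 3389, 3100 and 3232 TPM with 25-HC, though Cox4i1 exceeded it in vehicle 1 and Atp5e in vehicle 2. Atp5a1, the alpha subunit, had 542, 240 and 863 TPM against 853, 873 and 837 TPM. Both overlapped between the groups, and after rescaling or the length correction Atp5a1 lay above every vehicle library. Although the assembled head holds alpha and beta in equal number, the ratio of Atp5b to Atp5a1 transcript was 3.78, 12.1 and 3.99 with vehicle and 3.55 to 3.98 with 25-HC. Vehicle 2 was again the library out of proportion.

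Atp5c1, the gamma shaft, varied little, with 431, 361 and 413 TPM against 420, 441 and 434 TPM. Atp5d had 625, 813 and 526 TPM against 526, 551 and 532 TPM. Atp5e, the small epsilon subunit at the foot of the shaft, had 1295, 3809 and 855 TPM in vehicle 1, 2 and 3 and 799.6, 803.6 and 829.5 TPM with 25-HC. Treated libraries were below all vehicle libraries, but by 1.03-fold at the nearest (log2 difference -0.99, SE 0.53, adjusted p = 0.389 by limma). They overlapped after rescaling and after the length correction. More separated were the membrane subunits Atp5md, with 1089, 862 and 921 TPM against 709, 760 and 761 TPM, and Atp5mpl, with 728, 790 and 600 TPM against 522, 539 and 492 TPM. These and Atp5j, a stalk subunit with 391, 340 and 312 TPM against 281, 270 and 280 TPM, lay below on all 3 scales. The inhibitor Atpif1 had 1171, 1350 and 912 TPM with vehicle and 893, 915 and 896 TPM with 25-HC and overlapped (adjusted p = 0.390 by limma).

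The c ring, the rotor in the membrane, is built from 1 mature protein that Atp5g1, Atp5g2 and Atp5g3 all encode. Atp5g1 had 617, 981 and 470 TPM in vehicle 1, 2 and 3 and 452, 449 and 460 TPM with 25-HC, lower in each treated library by 1.02-fold at the nearest. Atp5g3 had 649, 180 and 685 TPM against 600, 585 and 597 TPM, and Atp5g2 19.4 to 26.6 TPM against 25.0 to 28.8 TPM. The values of Atp5g1 and Atp5g2 are uncertain, since other genes hold near-identical transcripts. The annotated transcript of Gm10175 matches Atp5g2 with 100% identity over 100% of its length and held 97.2% of the TPM of the pair, at 955, 548 and 913 TPM with vehicle and 933, 964 and 973 TPM with 25-HC. Gm10039 held 23.1% of its pair with Atp5g1. With these copies added, Atp5g2 made 40.7%, 26.5% and 42.6% of c-ring transcript in the vehicle libraries and 45.2%, 46.5% and 45.9% with 25-HC. Atp5g1 made 32.3%, 65.1% and 26.4% against 26.6%, 26.1% and 26.7%, and Atp5g3 27.0%, 8.40% and 31.1% against 28.3%, 27.4% and 27.4%. Without the copies Atp5g2 made 1.64% to 2.25% of c-ring transcript with vehicle and 2.32% to 2.71% with 25-HC.

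Ndufb1 and Ndufb4c had no basic protein-coding transcript in GENCODE M21 and were not compared for near-identical transcripts. Among the 81 tested members compared, 13 had a transcript of another gene with at least 95% identity over at least 50% of their length. For 3, namely Atp5g1, Atp5g2 and Atp5l, more than 10% of the summed level lay in the copies. Atp5l, a membrane subunit with 1856, 1088 and 1580 TPM in vehicle 1, 2 and 3 and 1489, 1471 and 1478 TPM with 25-HC, shared sequence with Gm10221, which had 737, 966 and 405 TPM against 328, 313 and 293 TPM. The copy, not Atp5l, was lower in every treated library. These genes are uncertain in all comparisons.

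Complexes I, III, IV and V also need subunits from the mitochondrial genome, which are transcribed apart from the nucleus. The ratio of the summed level of all members to that of the 13 mitochondrially encoded subunits was 8.27, 4.19 and 6.30 in vehicle 1, 2 and 3 and 3.84, 3.94 and 3.92 with 25-HC. It was lower in every treated library than in every vehicle library, of which vehicle 2 was the nearest (4.19 against at most 3.94). For complex III it was 13.3, 8.05 and 8.21 against 4.18, 4.22 and 4.23. The gap was widest there, and it rests on mt-Cytb, the only mitochondrial gene of that complex, at 465, 954 and 596 TPM against 1089, 1095 and 1066 TPM (log2 difference 0.75, SE 0.28, adjusted p = 0.389 by limma). For complex IV the ratio was 11, 7.63 and 6.43 against 3.57, 4.34 and 3.52, with mt-Co1 at 879, 633 and 1419 TPM against 2167, 2182 and 2117 TPM. Summed mitochondrial transcript of complex IV was 1177, 1520 and 1703 TPM against 3093, 2591 and 3155 TPM, and mt-Co3 varied widely within it, at 219, 845 and 187 TPM against 675, 175 and 409 TPM. For complex V it was 8.05, 5.97 and 6.43 against 4.53, 4.25 and 4.65. There mt-Atp6 and mt-Atp8 overlap each other in the genome, and mt-Atp6 ranged from 0 to 426 TPM, so this ratio is uncertain. Complex I overlapped, at 5.15, 1.84 and 4.76 against 2.96, 2.84 and 3.15. Whether such transcripts were captured alike in all libraries was not tested.

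**Figure D5:**
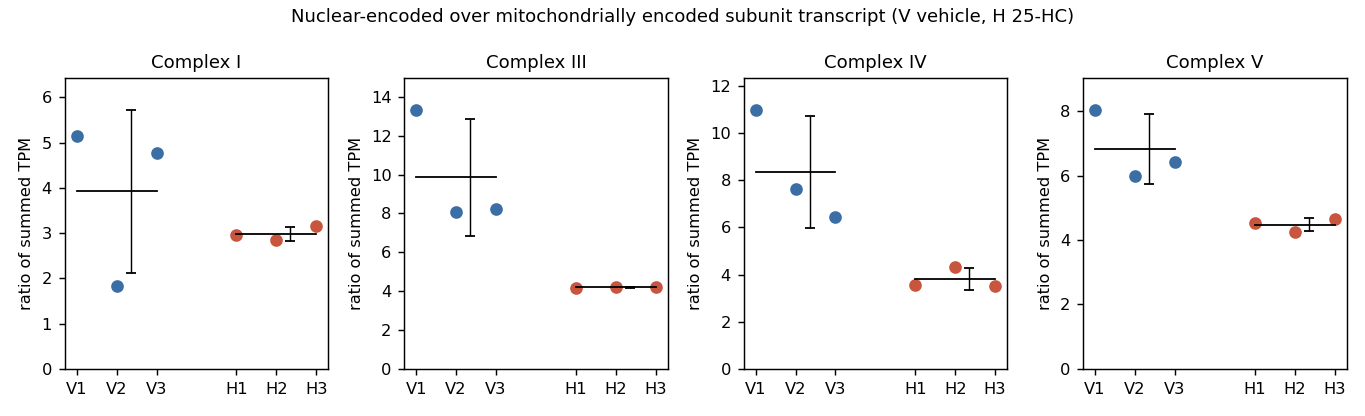
Ratio of summed TPM of nuclear-encoded to mitochondrially encoded subunits in each library, vehicle (V1 to V3) and 25-HC (H1 to H3); points are libraries, lines group means and bars 1 SD (n = 3). With 25-HC the ratio is below every vehicle library for complexes III (4.18 to 4.23), IV (3.52 to 4.34) and V (4.25 to 4.65) and overlaps for complex I, where vehicle 2 is lowest at 1.84.

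No gene of the related lists passed limma's test either, and their counts stand beside 22.6% of all genes higher and 8.1% lower. Of 13 mitochondrially encoded subunits 5 lay higher in every 25-HC library and none lower, with a median log2 difference of 0.16. Of 47 assembly factors tested, which build the complexes without staying in them, 6 lay higher and 7 lower (median 0.19). Of 78 mitochondrial ribosomal proteins 5 lay higher and 23 lower (median -0.09), and of 93 cytosolic ones 7 higher and 5 lower (median -0.18). After rescaling, where 18.4% of all genes lay higher and 18.1% lower, these counts were 2 and 33 for the mitochondrial and 0 and 8 for the cytosolic ribosomal proteins, 5 and 13 for the assembly factors, and 2 and 0 for the mitochondrially encoded subunits. Like the members, these ribosomal genes have short transcripts, with medians of 1225 and 779 bases. The 13 TCA cycle enzymes had 2 in each direction (median 0.68), the 6 carriers and channels for phosphate and adenine nucleotides 3 higher (median 0.80), and the 11 factors of respiratory gene expression 2 higher and 1 lower (median 0.94), beside 0.52 over all genes. Nrf1 itself had 15.7, 7.19 and 24.5 TPM in vehicle 1, 2 and 3 and 20.98, 20.2 and 20.6 TPM with 25-HC, and Yy1 5.17, 2.13 and 10.6 TPM against 12.2, 10.7 and 10.95 TPM.

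Among 6421 genes outside the members with a mean of at least 10 TPM, the 5 whose log2(TPM + 1) followed the mean of the members most closely over the 6 libraries were Rpl30-ps1 (Pearson r = 0.993), Smim26 (0.980), Psmg3 (0.978), Dctn3 (0.977) and the unnamed transcript MSTRG.22429 (0.977). They were picked as the closest of many, so these values describe the ranking only. The mean of the members was 8.33, 8.17 and 8.16 on that scale in vehicle 1, 2 and 3 and 8.14 to 8.16 with 25-HC, with vehicle 1 the highest.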

How the data were processed

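RNA of 3 vehicle and 3 25-HC libraries was prepared with a TruSeq kit from 1 µg of total RNA, per the labels' protocols. HISAT2, StringTie, RSEM and the build GRCm39 were used, per the submitters' processing notes. For the annotation release and for strandedness, nothing is given in the sources used here. TPM per gene are the values the authors deposited, and they keep no counts and no depth. The table also had 11 empty columns, which were ignored. Members and lists were chosen with earlier results of these data known. The test took the 12092 genes averaging 1 TPM or more and ran on log2(TPM + 1), all 6 libraries in 1 fit, in R 4.3.3 with the package limma 3.58.1 (moderated with a variance trend, two-sided, Benjamini-Hochberg over all genes tested, threshold 0.05). Such differences understate changes of low genes. No overlap means that every 25-HC library lay above, or below, every vehicle library. Exact permutation of 3 against 3 libraries cannot give a p below 0.1 and was not used. A value listed at 0 can be a failed estimate, so no fold is given against it.

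Transcript length was the median over a gene's basic protein-coding transcripts in GENCODE M21 (any transcripts where there were none), matched by identifier for 11132 genes (92.1%), and the correction subtracted a loess trend per library (span 0.75, degree 2). Near-identical transcripts were sought in the same release, with 95% identity over 50% of the transcript. Members described singly were, per complex, those with the highest and lowest mean and the largest difference in each direction, the core, redox, F1 and c-ring subunits, complex II and the tissue isoforms; others are named after their values were seen, and not every member that this rule covers is reported here. Alternatives were pseudocounts, filters, scalings, moderation, a replicate block and left-out libraries. Counts and figures were made in Python 3.11.15 with matplotlib 3.10.9, numpy 2.4.6, pandas 2.3.3 and scipy 1.17.1. No read counts exist in the table, so no interval from counting was possible.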

Additional observations from a re-analysis of the deposited data

How the results depend on the processing

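No member was called in any other setting with a test. These included a replicate block, under which the smallest adjusted p of a member was 0.415 by limma. Deviations of same-numbered libraries from their group means correlated at -0.01, 0.06 and 0.03 over genes. Such values cannot exclude a pairing, because the spread among the vehicle libraries could hide a shared replicate effect. After median-ratio rescaling 2 members (2.41%) lay above every vehicle library, beside 18.4% of all genes. Of these 2, Uqcrc2 was above on the deposited values too, whereas Atp5a1 overlapped there. The rescaling moved the median log2 difference of the members to -0.82. Against vehicle 3 alone, with no test, 26 members (31.3%) lay above and 46 (55.4%) below, beside 28.5% and 45.7% of all genes. With 1 library left out, the members above numbered 6 to 13 (11 without vehicle 1, 13 without vehicle 3) and those below 26 to 44 (39 without vehicle 2, 44 without vehicle 3). Over all genes the shares were 24.4% above and 9.23% below without vehicle 1, 23.6% and 16.9% without vehicle 2, and 59.5% and 13.2% without vehicle 3, so these counts rest on the vehicle libraries. Without vehicle 3 the smallest adjusted p of a member was 0.0504 and limma called 671 genes higher and 51 lower among all tested. Of 40 tested members that the naming rule covers, 17 kept the sign of their difference in all 18 other settings. Among them were Cox6a2, Ndufa5, Cycs, Uqcr10 and Uqcrc2. The other 23 changed it in at least 1 setting, among them Sdha to Sdhd, Atp5a1, Atp5b and Cox7a2l. By design, the filters, the moderation choices and the replicate block leave each difference unchanged, so they could not turn a sign. The cause of the sign changes was not tested. TPM keep no depth, so precision at low levels, as for Cox6a2, is unknown.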

Other observations

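Around the subunits, a few genes of the chain's assembly and upkeep lay apart from every vehicle library without passing limma's test, and they are named here after their values were seen. Lrpprc, which binds and stabilises mitochondrial mRNAs, had 3.14, 0.31 and 5.59 TPM in vehicle 1, 2 and 3 and 10.85 to 11.29 TPM with 25-HC, 1.98 times vehicle 3 (unadjusted p = 0.0203 and adjusted p = 0.389 by limma). Sco2, a copper chaperone of complex IV, had 14.2, 1.92 and 17.4 TPM with vehicle and 23.7, 24.8 and 22.5 TPM with 25-HC. Uqcc2, which assists translation and assembly of mitochondrial cytochrome b, had 325, 549 and 247 TPM with vehicle and 191, 206 and 190 TPM with 25-HC. Pet100, a complex IV assembly factor, had 72.3, 238 and 54.2 TPM with vehicle and 46.0, 47.0 and 43.6 TPM with 25-HC.

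The mitochondrially encoded genes were not alike. Of 13 genes, 5 lay higher in every 25-HC library, namely mt-Nd2, mt-Co1, mt-Co2, mt-Cytb and mt-Atp8, beside 22.6% of all genes. The last of these overlaps mt-Atp6 and is uncertain. After median-ratio rescaling 2 of the 13 lay higher, beside 18.4% of all genes. The complex I gene mt-Nd2 had 313, 616 and 396 TPM in vehicle 1, 2 and 3 and 751, 769 and 733 TPM with 25-HC (adjusted p = 0.389 by limma). In contrast, mt-Nd4 had 285, 1230 and 241 TPM with vehicle and 359, 379 and 347 TPM with 25-HC, and mt-Nd6 had 294, 1232 and 223 TPM against 284, 303 and 256 TPM. Since strandedness is not given, reads of mt-Nd6 cannot be told apart from those of the opposite strand. For mt-Nd4 and mt-Nd6 vehicle 2 was the highest library, whereas the nuclear transcripts of complex II were lowest there.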
